A study of Drosophila melanogaster with 9 samples.

Results

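Long noncoding RNAs (lncRNAs) are transcripts that can be as long as mRNAs and carry a polyA tail, but are not annotated as protein-coding. Some act in the nucleus as scaffolds for proteins, such as the roX RNAs that coat the male X chromosome of *Drosophila*. Others are the primary transcripts out of which the hairpins of microRNAs (miRNAs) are cut. The 18 genes described here are the lncRNA genes with the highest read counts in late *Drosophila* embryos. They were chosen as the rows named lncRNA with a mean raw count over all samples of at least 500, and they make up 18 of 1473 lncRNA rows and of 15228 rows in all. Their overall level is therefore a description. The rule itself uses the mean over all samples and no difference between genotypes.

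RNA-seq of polyadenylated RNA was performed on whole embryos of stage 16, with 200 embryos per sample and 3 samples per genotype. *pri* mutants carried the allele *pri S18.1*, *ken* mutants carried *ken1* over the deficiency *Df(2R)BSC660*, and control embryos are labelled WT with titles that begin with w. *pri* (*polished rice*) encodes small peptides that act in the differentiation of the epidermis, and *ken* (*ken and barbie*) encodes a zinc finger transcriptional repressor. Mutant embryos were picked by hand with a GFP-marked balancer chromosome, and other genes removed by the deficiency are left with a single copy in *ken* mutants. The sources do not state that control embryos share the stock background of the mutants. Mutation and stock background thus cannot be told apart in a comparison with control, also where both mutants differ from it alike. Whole embryos mix all tissues, so that fewer cells of a type and less RNA per cell cannot be told apart in any value below.

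The samples held 21048610 to 28859395 counts on genes. The *ken* gene had 1197, 1185 and 1338 normalized counts in *ken* mutants, against 6957, 7431 and 6432 in control embryos, and *pri* itself was not analysed here. *pri* sample 1 stood apart, since the summed level of 7 midgut markers was 7053 normalized counts there and 1554 to 2604 in the other 8 samples. The list of epidermis and cuticle genes held sha, m, f, nyo, neo, mey, kkv, knk, serp, verm and rtv. Of these 11 genes, 8 were lower in *pri* mutants against control and 0 in *ken* mutants. Their sums were 57431 to 60722 in *pri*, 79971 to 97239 in *ken* and 86720 to 98379 in control. The list has no Lcp, Cpr or Tweedle cuticle protein gene, many of which the study reports as up-regulated in *pri* mutants, and some also in *ken* mutants. The study reports targets of the trichome factor Shavenbaby as lower in *pri* mutants, and sha is a direct target. Of 8 hemocyte markers, 3 were higher in *pri* against control (NimC1, PPO2 and lz) and 1 was lower in *ken* against control (NimC1). The sums were 22329 to 26074 in *pri*, 13420 to 19613 in *ken* and 18268 to 20272 in control. PPO1 (7803, not called) and PPO2 (9856) had the largest means in *pri*. Hml, Pxn, srp and crq went the other way in *pri*, with log2 fold changes of -0.75, -0.47, -0.24 and -0.25, and were not called. Against control, 1 of 4 tracheal markers and 1 of 11 muscle markers were lower in *pri*, 1 of 7 midgut markers was lower in *ken*, and 1 of 6 fat body markers was higher in each mutant. Of 15 neuronal markers, 0 passed the test in any comparison (edgeR; 3, 1 and 2 at an unadjusted p under 0.05, and 1, 0 and 1 by DESeq2, for *pri* and *ken* against control and *pri* against *ken*). The part of these marker differences in the results below was not tested. Levels are normalized counts, which are raw counts divided by a size factor per sample. Differences are log2 fold changes of the edgeR quasi-likelihood test, with p-values adjusted over all 15228 rows, and the word called means an adjusted p under 0.05.

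LncRNA rows took 0.878% to 1.03% of the counts of a sample, and the 18 genes took 90.4% to 91.5% of these. CR42862 alone held 63.4% to 71.1% of all lncRNA counts. The mean raw count of the 18 genes ran from 525 to 156388, with a median of 1934; 2 genes were above 10000, 10 between 1000 and 10000, and 6 below 1000. By contrast, 1371 of the 1473 lncRNA rows had a mean below 50. The threshold cuts a continuous range. CR46003 (579), CR44417 (547) and CR43334 (525) lay just inside it, whereas CR46006 (492), CR44024 (487) and CR43126 (446) lay just outside. The mean reached 500 in all 3 genotypes for 15 genes. It was below 500 in *pri* mutants for CR46003 (397) and CR44417 (386), and in *ken* mutants for CR43334 (484).

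**Figure D1:**
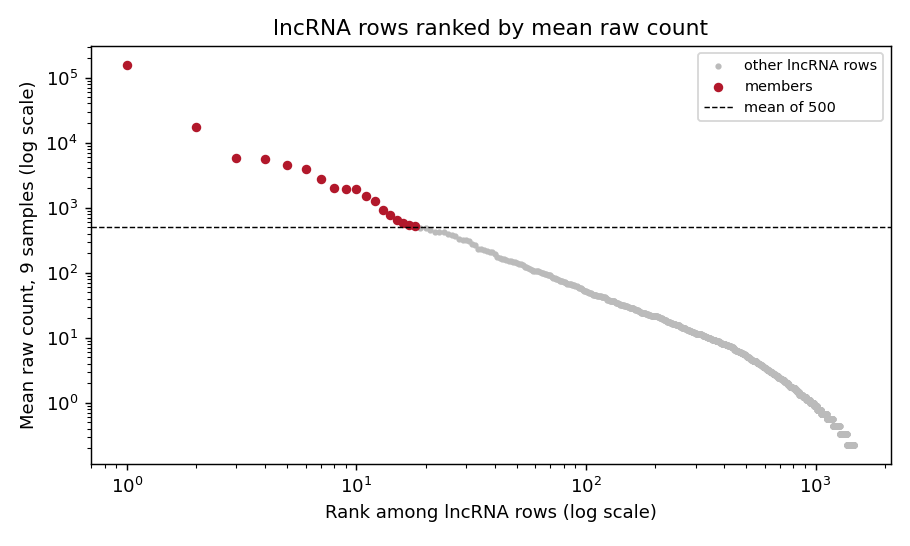
Mean raw count over the 9 samples (y axis, log scale) of every lncRNA row against its rank (x axis, log scale). Red points are the 18 genes at or above the dashed line at 500 and grey points the other lncRNA rows, and CR42862 stands apart at 156388, against 17261 for the next gene, roX1.

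The genes are spread over the genome, with 1 on chromosome 2L, 4 on 2R, 4 on 3L, 5 on 3R and 4 on X. Their annotated exons span 361 to 21710 bases, with a median of 2564.5, and 11 genes are a single uninterrupted block. Per kilobase of exon, 15 of the 18 were above the median of all rows, and the ranking ran from the 34.5th percentile for CR46003 to the 99.5th for CR42862. Hairpins of annotated miRNAs lie within 5 of them, which are CR31451, Hsromega, CR43459, CR43650 and CR43334. The libraries measured the polyadenylated host transcript, not the mature miRNA.

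In *pri* mutants, 3 of the 18 genes were higher than in control and 2 were lower, against 3.68% and 3.83% of all 15228 rows. The higher ones were CR43459, the host of mir-277 and mir-34, by 3.61-fold, CR34335 by 2.6-fold and CR31781 by 1.5-fold. CR43650, the host of mir-8, was 1.84-fold lower and CR30009 1.52-fold lower. Among the 6252 rows with a mean count of at least 500, which are those measured at a like depth, 4.32% were higher and 4.48% lower. The values of *pri* and control samples did not overlap for 11 of the 18 genes, against 31% of all rows and 37.7% of rows at 500 or more. The median log2 fold change of the 18 genes was 0.10 (0.02 over all rows), and its median size was 0.29, against 0.27 over all rows and 0.15 over rows at 500 or more. The number of genes called higher was 1 without any one of *pri* samples 2 and 3 and control samples 1 and 3, and the number called lower was 1 without *pri* sample 2, *ken* sample 3 or any one control sample. Without *pri* sample 1 or 3 the number lower stayed at 2, but CR30009 was lost. Hsromega was called in its place without sample 1, and CR46003 without sample 3.

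In *ken* mutants, 2 of the 18 genes were higher than in control and 0 lower, against 2.21% and 2.81% of all rows, and 2.06% and 2.86% of rows at 500 or more. CR34335 was higher by 19.9-fold and CR31781 by 1.5-fold. At an unadjusted edgeR p under 0.05, 6 genes were higher and 3 lower, against 1277 and 1413 of all 15228 rows. Among the 6252 rows at 500 or more, 534 and 612 reached that threshold. DESeq2 called 4 higher and 2 lower, against 551 and 688 of all rows, and 261 and 329 of rows at 500 or more. With the sample number as a block, edgeR called 2 genes lower, CR43650 (adjusted p = 0.0288) and CR30009 (adjusted p = 0.0175). The groups did not overlap for 9 of the 18 genes, against 24.9% of all rows and 27.2% of rows at 500 or more. The median log2 fold change was -0.03, and its median size 0.27, against 0.22 over all rows and 0.12 over rows at 500 or more. The number called higher was 1 without *pri* sample 3, *ken* sample 2 or 3, or control sample 1 or 3, and the number called lower was 1 without *pri* sample 1, *ken* sample 3 or control sample 1. Without *ken* sample 1 the number higher stayed at 2, with CR31781 lost and cherub called.

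The 2 mutants were also compared with each other, a contrast without the control mean that both comparisons above share. The scaling and the spread were still estimated from all 9 samples. In *pri* against *ken* mutants, 1 of the 18 genes was higher (CR43459) and 2 were lower (CR34335 and CR44417), against 4.03% and 4.09% of all rows, and 4.72% and 5.1% of rows at 500 or more. Values did not overlap for 6 of the 18 genes, against 26.5% of all rows and 30.8% of rows at 500 or more. The median log2 fold change was 0.01, and its median size 0.24, against 0.27 over all rows and 0.15 over rows at 500 or more. The number called higher was 2 without *ken* sample 2, and the number called lower was 1 without *pri* sample 2 or 3. In all, 6 genes were called in at least 1 comparison and 12 in none. The like share over all rows was not computed, so that this count cannot be read as many or few.

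**Figure D2:**
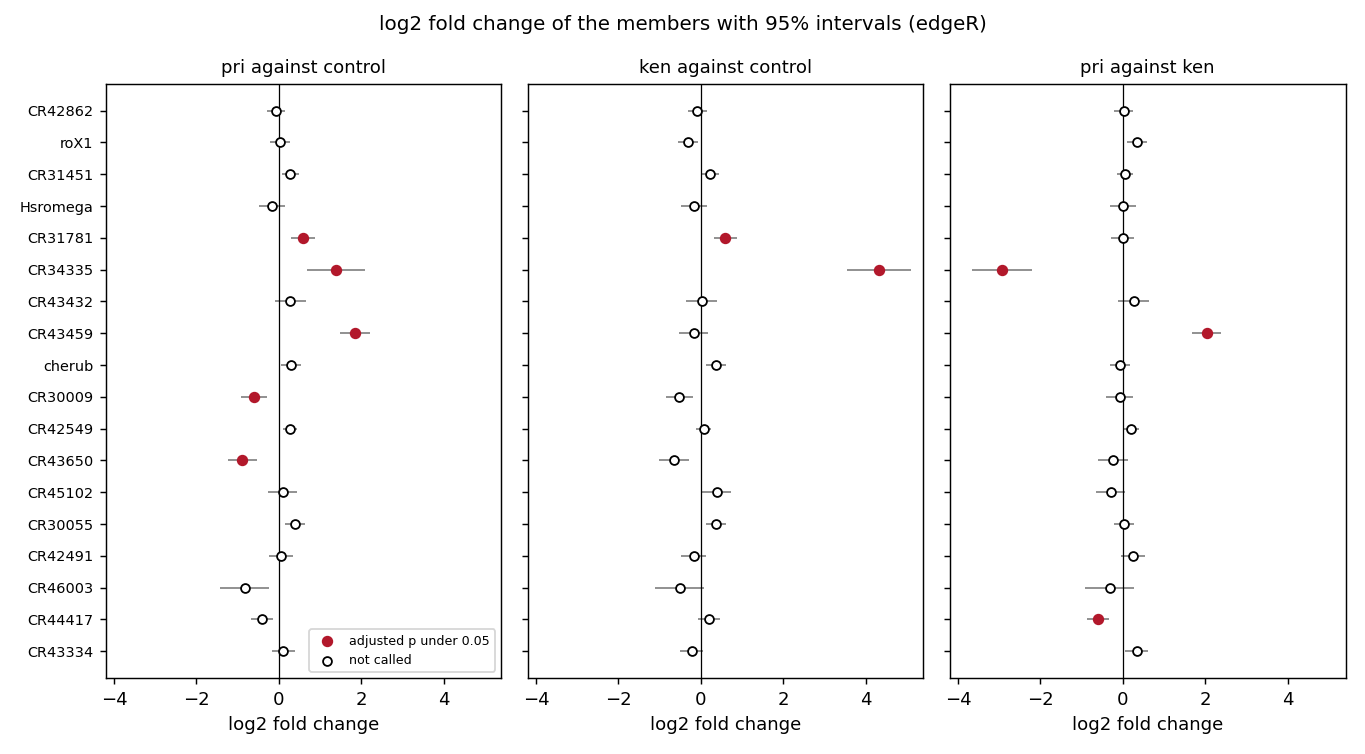
Log2 fold change (x axis) with its 95% interval (lines) for each of the 18 genes (y axis, highest mean count at the top) in the 3 comparisons (each mutant against control, then *pri* against *ken*); filled red points have an adjusted p under 0.05. CR34335 in *ken* against control (4.32) lies farthest from 0, and CR43459 is to the right of 0 in both comparisons that involve *pri*.

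**Figure D3:**
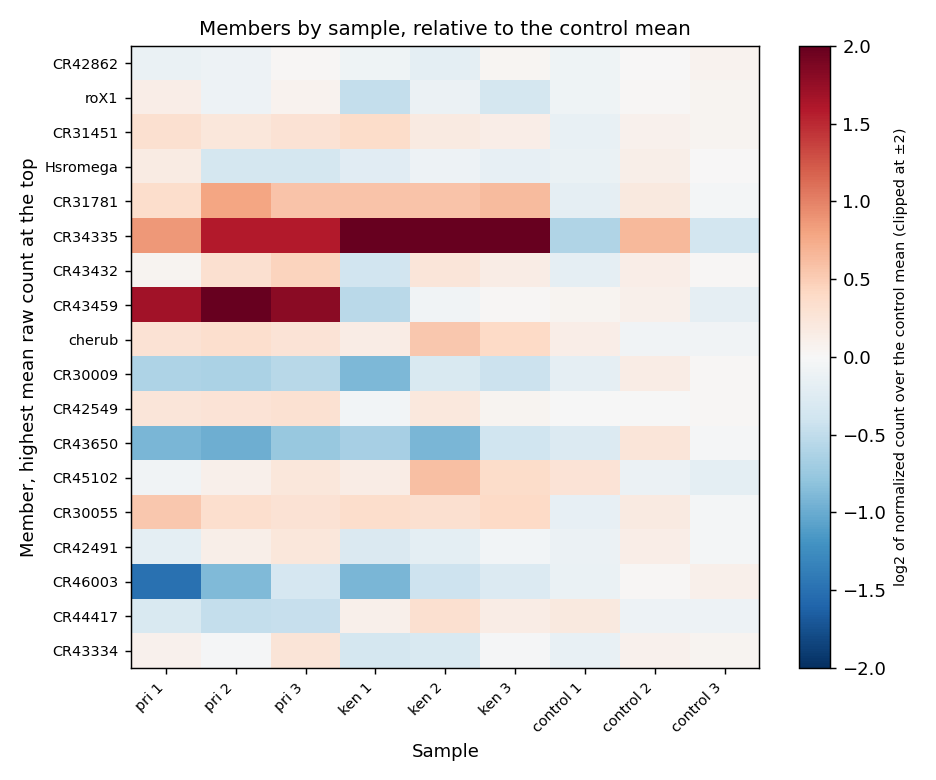
Log2 of the normalized count over the mean of the control samples (color, clipped at 2 in either direction) for each gene (rows) in each sample (columns, *pri*, *ken* and control). The CR34335 row is dark red in the 3 *ken* samples and the CR43459 row in the 3 *pri* samples, while the top 4 rows stay pale throughout.

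CR42862 (FBgn0262109, chromosome 3L, 224106 to 230964, plus strand, dm6) was the most abundant lncRNA and the third row of the table by mean count. It had 146878, 148810 and 163599 normalized counts in *pri* mutants, 150679, 139463 and 164441 in *ken*, and 150475, 161672 and 169071 in control. All 3 genotypes overlapped. The log2 fold change was -0.07 (95% interval -0.29 to 0.15) in *pri* against control and -0.08 (-0.31 to 0.14) in *ken* against control. Its exons share 246 bases, 4.5% of its exon length, with the coding gene CG33229 on the same strand. CG33229 had 1571 ± 47.9 normalized counts in *pri*, 1503 ± 109 in *ken* and 1911 ± 63.7 in control (SD, n = 3 each), and was lower in *ken* mutants (log2 fold change -0.35, edgeR adjusted p = 0.0355).

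roX1 (FBgn0019661, chromosome X, 3857230 to 3862697, minus strand) is an RNA subunit of the male-specific lethal complex, which raises transcription of the single X chromosome of males. The levels of roX1 were 19960, 17025 and 19234 in *pri*, 13107, 16834 and 14315 in *ken*, and 17136, 18623 and 19076 in control. Each *ken* sample was below each sample of the other genotypes. The difference did not pass the test in *ken* against control (log2 fold change -0.31 ± 0.11 SE, edgeR adjusted p = 0.154) or in *pri* against *ken* (0.35 ± 0.11 SE, edgeR adjusted p = 0.0859), although DESeq2 called the second (adjusted p = 0.0309). A list named for dosage compensation held 10 genes. They were the complex subunits msl-1, msl-2, msl-3, mof and mle, and also Clamp, JIL-1, Unr, Sxl and tra. Of the 10, 0 were called in any comparison with edgeR. At an unadjusted edgeR p under 0.05 there were 0 in *pri* against control, 1 in *ken* against control and 1 between the mutants, and DESeq2 called 0, 1 and 0. Among rows with a mean count of at least 500, the median log2 fold change in *ken* against control was 0.02 for 1077 rows on the X and 0.01 for 5075 autosomal rows. roX1 shares 392 bases with ec on the opposite strand, and whether the counting used strand was not stated.

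Hsromega (FBgn0001234, chromosome 3R, 21296127 to 21317836, plus strand) is the heat shock RNA omega, which organizes omega speckles, nuclear bodies that hold RNA-binding proteins. Hsromega had 6847, 4780 and 4749 normalized counts in *pri* mutants, 5176, 5680 and 5456 in *ken*, and 5571, 6582 and 6089 in control. *pri* sample 1 was the highest of all 9, while the other *pri* samples were the 2 lowest. No difference was called over all samples (*pri* against control, log2 fold change -0.16 ± 0.14 SE, edgeR adjusted p = 0.548), and without *pri* sample 1 Hsromega was lower in *pri* mutants (-0.35, edgeR adjusted p = 0.0438). *pri* sample 1 also had the highest sum over 17 heat shock genes, 140170 normalized counts, against 92936 and 104995 in the other *pri* samples, 80546 to 84802 in *ken* mutants and 92542 to 101739 in control. Hsc70-4 and Hsp83 made up most of this sum, with 77448 and 25251 normalized counts in *pri* sample 1. Neither of them was called by edgeR in any comparison. The part of *pri* sample 1 in the value of Hsromega was not tested beyond leaving this sample out. Among the heat shock genes 2 were higher in *pri* mutants than in control, Hsp23 (log2 fold change 2.75, edgeR adjusted p = 0.0269) and Hsp70Bb (3.50, edgeR adjusted p = 0.0348), 0 were lower, and the median was 0.98 against 0.02 over all rows. Hsp23 had 8626, 1142 and 2800 normalized counts in *pri*, and 558, 545 and 770 in control, so that *pri* sample 1 was the highest. Without *pri* sample 1, an alternative chosen for these genes after seeing the data, the log2 fold change of Hsp23 was 1.66 (edgeR adjusted p = 0.0227), Hsp70Bb was not called (3.35, edgeR adjusted p = 0.0522), and the median of the list was 0.36. In *ken* mutants 0 of 17 were called by edgeR (4 at an unadjusted p under 0.05, 2 by DESeq2) and the median was -0.28. In *pri* against *ken*, 4 of 17 were higher and 0 lower (14 at an unadjusted p under 0.05, 12 by DESeq2), with a median of 2.37; without *pri* sample 1, 3 were higher and the median was 0.81. The Hsp70 genes are near-identical copies, so that the assignment of reads among them is uncertain. Of 6 genes for proteins of omega speckles, 0 were called in any comparison by edgeR, by DESeq2 or at an unadjusted p under 0.05.

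CR31451 (FBgn0051451, chromosome 3R, 23983503 to 23985065, plus strand), now named mimi and known as a scaffold of neuronal RNA granules, was not called in any comparison. It measured 6317, 5932 and 6214 in *pri*, 6528, 5737 and 5552 in *ken*, and 4566, 5367 and 5252 in control. Neither mutant overlapped control, but the differences did not pass the test, with log2 fold changes of 0.28 ± 0.09 SE in *pri* (edgeR adjusted p = 0.102, DESeq2 0.0438) and 0.23 in *ken* (edgeR adjusted p = 0.225). cherub (FBgn0262972, chromosome 3R, 11247631 to 11256123, minus strand) is an RNA of neural stem cells that is passed to 1 daughter cell at their asymmetric division. For cherub, the values were 2017, 2097 and 1990 in *pri*, 1831, 2408 and 2177 in *ken*, and 1813, 1582 and 1571 in control. Every mutant sample was above every control sample, and neither difference passed the test (log2 fold change 0.30 in *pri*, edgeR adjusted p = 0.139, and 0.37 in *ken*, edgeR adjusted p = 0.0939, DESeq2 0.0338). The 15 neuronal markers summed to 70218 to 88308 in *pri*, 62070 to 74677 in *ken* and 60224 to 70244 in control, and their part in these values was not tested.

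The miRNA hosts differed in their direction. CR43459 (FBgn0263413, chromosome 3R, 10093761 to 10101356, plus strand) is a single block of 7596 bases that holds the hairpins of mir-277, a miRNA known for the control of branched-chain amino acid breakdown, and mir-34, known for its role in aging and in the nervous system. The counts of CR43459 were 3589, 4618 and 3906 in *pri*, 772, 1068 and 1131 in *ken*, and 1160, 1205 and 986 in control. The *pri* samples were far above all others, while *ken* and control overlapped. The log2 fold change was 1.85 ± 0.16 SE in *pri* against control (edgeR adjusted p = 0.000275), -0.18 ± 0.16 SE in *ken* against control (95% interval -0.53 to 0.17) and 2.03 ± 0.16 SE in *pri* against *ken* (edgeR adjusted p = 0.000213). The nearest coding gene, Fmr1, starts 64 bases away on the opposite strand and had 5105 ± 995 normalized counts in *pri*, 5610 ± 826 in *ken* and 5579 ± 278 in control (SD, n = 3 each); it was not called (log2 fold change -0.13 in *pri* against control, edgeR adjusted p = 0.651).

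CR43650 (FBgn0263659, chromosome 2R, 16829095 to 16839494, plus strand) is a block of 10400 bases that holds mir-8, the fly member of the miR-200 family of miRNAs. Its level was 910, 866 and 1008 in *pri*, 1078, 904 and 1295 in *ken*, and 1414, 2031 and 1685 in control. All 6 mutant samples were below all 3 control samples. The fold change was -0.88 ± 0.16 SE on the log2 scale in *pri* against control (edgeR adjusted p = 0.0112). In *ken* against control it was -0.65 ± 0.16 SE, with an adjusted p (edgeR) of 0.0518, and 8 of 17 alternative fits called it lower, DESeq2 (adjusted p = 0.00503) and the block on sample number among them. The difference between the mutants was not called (-0.23, 95% interval -0.59 to 0.13). The nearest coding genes were CG34460 at 1340 bases and CG34459 at 2447 bases, both on the same strand. They were lower in *ken* mutants, with log2 fold changes of -0.95 and -1.16 (edgeR adjusted p = 0.0462 and 0.00466), and were not called in *pri* mutants (0.26 and -0.37).

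The third host with an assigned miRNA function, CR43334 (FBgn0286827, chromosome 3L, 628435 to 643900, plus strand), holds bantam, a miRNA that promotes tissue growth and represses the cell death gene hid. CR43334 shares 994 bases, 6.4% of its exon length, with the lncRNA gene CR43423 on the opposite strand. CR43334 had 565, 527 and 641 normalized counts in *pri* mutants, 420, 432 and 524 in *ken*, and 484, 566 and 553 in control. Each *pri* sample was above each *ken* sample, without passing the test (log2 fold change 0.34, 95% interval 0.05 to 0.62, edgeR adjusted p = 0.150). Against control, the change was 0.11 in *pri* and -0.22 in *ken*. Hence, of the 5 hosts, CR43459 was called higher in *pri*, CR43650 lower in *pri*, and CR31451, Hsromega and CR43334 were not called.

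**Figure D4:**
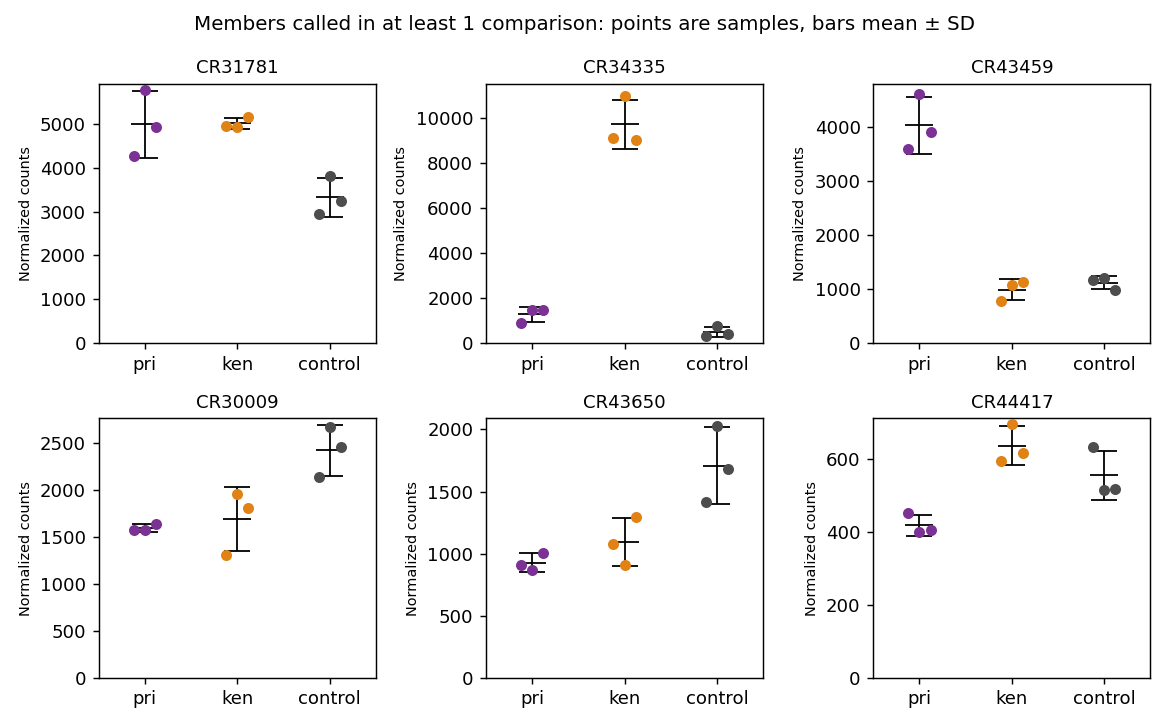
Normalized counts (y axis, starting at 0) of the 6 genes called in at least 1 comparison, in *pri*, *ken* and control. Points are samples and bars the mean ± SD (n = 3); CR34335 lies at 9042 to 10990 in *ken*, CR43459 at 3589 to 4618 in *pri*, and in the CR31781 panel all mutant points lie above the control points.

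CR34335 (FBgn0267910, chromosome X, 3545750 to 3546110, minus strand) had the largest difference of the 18 genes. It is a block of 361 bases in an intron of DIP-alpha, on the same strand, and shares 0 exon bases with it. CR34335 measured 887, 1458 and 1451 in *pri*, 9116, 10990 and 9042 in *ken*, and 320, 760 and 376 in control. The 3 genotypes did not overlap, in the order *ken*, *pri*, control. The means were 1265 ± 328 in *pri*, 9716 ± 1104 in *ken* and 485 ± 239 in control (SD, n = 3 each). In *ken* against control the log2 fold change was 4.32 ± 0.35 SE (edgeR adjusted p = 0.000189), and in *pri* against *ken* it was -2.94 ± 0.33 SE (edgeR adjusted p = 0.000887), and both were called in each of 17 alternative fits. In *pri* against control it was 1.38 ± 0.31 SE (edgeR adjusted p = 0.0293). That call held in 10 of 17 alternatives and was lost without *pri* sample 2 or 3, *ken* sample 3, or control sample 1 or 3, with a robust spread and with only the genotypes compared (adjusted p up to 0.118). CR34335 was also the most variable of the 18 genes between samples of a genotype, with an SD of 0.46 on the log2 scale, against a median of 0.17 for the 18 genes and 0.13 for rows at 500 or more. DIP-alpha, a cell surface protein of neurons, had 302 ± 33.0 normalized counts in *pri*, 289 ± 37.4 in *ken* and 258 ± 38.6 in control, and was not called (log2 fold change 0.23 in *pri* and 0.16 in *ken* against control, edgeR adjusted p = 0.444 and 0.657).

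CR31781 (FBgn0051781, chromosome 2L, 16869346 to 16878300, plus strand) has 4 exon blocks with 2679 bases. The samples held 4263, 5782 and 4935 normalized counts of CR31781 in *pri*, 4955, 4933 and 5165 in *ken*, and 2941, 3814 and 3234 in control. All mutant samples were above all control samples. The log2 fold change was 0.58 ± 0.13 SE in *pri* against control (edgeR adjusted p = 0.0228) and 0.59 ± 0.13 SE in *ken* against control (edgeR adjusted p = 0.0297), and both rest on the same control samples. Between the mutants it was -0.01 (95% interval -0.29 to 0.28). The *pri* call was lost with only the genotypes compared and without *pri* sample 2 or 3 or control sample 1 or 3 (adjusted p up to 0.0992), and the *ken* call without *pri* sample 3, any one *ken* sample, or control sample 1 or 3 (up to 0.126).

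CR30009 (FBgn0050009, chromosome 2R, 10261315 to 10263827, minus strand) had 1569, 1567 and 1641 normalized counts in *pri* mutants, 1301, 1951 and 1803 in *ken*, and 2132, 2671 and 2456 in control. As for CR43650, the 6 mutant samples were all below the control samples. CR30009 changed by -0.60 ± 0.14 SE on the log2 scale in *pri* against control (edgeR adjusted p = 0.0354), a call that was lost without any one *pri* or control sample or *ken* sample 3 (adjusted p up to 0.129). In *ken* against control the log2 fold change was -0.53 ± 0.14 SE (edgeR adjusted p = 0.0764), and only DESeq2 (0.0184) and the block on sample number called it. Its nearest coding gene, CG12911, lies 39 bases away on the opposite strand and did not pass the test (0.08 in *pri* and 0.12 in *ken*, edgeR adjusted p = 0.702 and 0.644).

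CR44417 (FBgn0265590, chromosome 2R, 17869027 to 17869857, plus strand) lies within the span of Mapmodulin on the opposite strand and shares 0 exon bases with it. It was the third gene that differed between the mutants, with 452, 398 and 405 normalized counts in *pri*, 595, 696 and 617 in *ken*, and 633, 516 and 518 in control. The *pri* samples were below all other samples. The log2 fold change was -0.60 ± 0.12 SE in *pri* against *ken* (edgeR adjusted p = 0.0132) and was not called without *pri* sample 2 or 3 (adjusted p up to 0.0549). Against control, neither *pri* (-0.41, edgeR adjusted p = 0.0682, DESeq2 0.0227) nor *ken* (0.19, edgeR adjusted p = 0.458) passed the test. Mapmodulin was not called (log2 fold change 0.01 in *pri* and -0.18 in *ken*, edgeR adjusted p = 0.977 and 0.366).

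The remaining 6 genes were called in none of the comparisons. CR46003 (FBgn0267665, chromosome 3L, 10286945 to 10307968, minus strand), a block of 21024 bases, was the least abundant per kilobase and varied widely, with 268, 410 and 597 normalized counts in *pri* mutants, 401, 569 and 627 in *ken*, and 691, 765 and 811 in control. All mutant samples of CR46003 were below control, and the log2 fold change of -0.83 ± 0.27 SE in *pri* did not pass the test (edgeR adjusted p = 0.100, DESeq2 0.0248). CR46003 shares 450 bases with the lncRNA gene CR46449 on the same strand and 455 with CR46004 on the opposite strand. CR30055 (FBgn0050055, chromosome 2R, 12589239 to 12591395, plus strand), within the span of Sin3A on the other strand, had 915, 798 and 773 in *pri*, 805, 790 and 831 in *ken*, and 564, 711 and 616 in control. Its log2 fold changes were 0.39 in *pri* (edgeR adjusted p = 0.0616, DESeq2 0.0159) and 0.36 in *ken* (edgeR adjusted p = 0.107, DESeq2 0.0420), with no overlap with control in either mutant. CR42549 (FBgn0260722, chromosome 3R, 9548104 to 9551806, minus strand) shares 97 bases, 4.9% of its exon length, with the coding gene mura on the same strand. It was the steadiest of the 18 genes, with an SD between samples of a genotype of 0.08 on the log2 scale. Its values were 1660, 1708 and 1735 in *pri*, 1353, 1629 and 1468 in *ken*, and 1397, 1401 and 1425 in control, and the log2 fold change of 0.27 in *pri* was not called (edgeR adjusted p = 0.0755, DESeq2 0.0257).

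CR43432 (FBgn0263380, chromosome 3L, 14976626 to 14977631, minus strand), now named marge, had 2611, 3148 and 3440 normalized counts in *pri* mutants, 1935, 2980 and 2794 in *ken*, and 2224, 2775 and 2563 in control, with overlap between all genotypes. CR45102 (FBgn0266549, chromosome X, 3701857 to 3703285, plus strand) had 778 to 960 in *pri*, 909 to 1237 in *ken* and 710 to 988 in control. The log2 fold change of CR45102 was 0.09 in *pri* and 0.38 in *ken* against control (edgeR adjusted p = 0.776 and 0.242). CR42491 (FBgn0259993, chromosome X, 762615 to 763810, minus strand) shares 377 bases, 50.5% of its exon length, with the ribosomal protein gene RpL22 on the same strand, so that its counts are uncertain. CR42491 lay at 571 to 766 in *pri*, 534 to 634 in *ken* and 605 to 721 in control. RpL22 had 18529 ± 656 normalized counts in *pri*, 21650 ± 1224 in *ken* and 24199 ± 2198 in control (SD, n = 3 each), with a log2 fold change of -0.39 in *pri* against control (edgeR adjusted p = 0.0292), whereas that of CR42491 was 0.06 (95% interval -0.23 to 0.35).

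The nearest coding gene of each lncRNA gene was examined in the same way. In *pri* against control, 0 of the 5 neighbours of called genes were called, and 1 of the 13 neighbours of the other genes was, RpL22. In *ken* against control the counts were 0 of 2 and 3 of 16 (CG33229, CG34460 and Ocho, which lies beside CR43432), and in *pri* against *ken* 0 of 3 and 2 of 15. The neighbour of CR31781, CG32832, had means of only 0.38, 1.38 and 0.29 normalized counts in *pri*, *ken* and control. At that level a call was hardly possible. The next coding gene, CG6012 at 7857 bases, was lower in both mutants, opposite to CR31781 (log2 fold change -1.32 in *pri* and -2.16 in *ken*, edgeR adjusted p = 0.0225 and 0.00318). Of all rows, 3.68% were called higher and 3.83% lower in *pri* against control. The shares were 2.21% and 2.81% in *ken* against control, and 4.03% and 4.09% in *pri* against *ken*. With so few called genes, a count of 0 cannot set their neighbours apart from other rows.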

How the data were processed

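RNA-seq counts per gene were used for 9 samples of whole stage 16 embryos, 3 per genotype, which the study's methods call independent. The authors aligned paired reads of 100 bases with STAR 2.6.1d to dm6, counted them on FlyBase release 6.31 and dropped genes with a total of 1 or less; the deposited counts are whole numbers. The deposited normalized counts, a signal value, are these counts divided by DESeq2 (1.32.0) size factors, which was checked on the values (largest relative difference 5e-10). The libraries came from a strand-specific kit, and the strand setting of the counting is not given in the sources used here. Mouse genome builds stand in the submitters' processing notes, but the gene identifiers are those of *Drosophila*. Positions were taken from Ensembl release 115 on the same build, which matched 15159 of 15228 rows and 1472 of 1473 lncRNA rows.

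Counts of all rows and all 9 samples were fitted with edgeR 4.0.16 (quasi-likelihood, TMM, no filter) and limma 3.58.1 in R 4.3.3, with a mean per genotype. P-values were adjusted by Benjamini-Hochberg over all rows. Standard errors are the absolute log2 fold change divided by the root of the F statistic. The fit was checked on simulated counts. Depth was 21048610 to 28859395 counts per sample. Alternatives were DESeq2 1.42.0, RLE factors, library totals, 2 filters on low counts, only the genotypes compared, a robust spread, the sample number as a block, each sample left out, a fold threshold, other minimum counts for the gene set, and genes that overlap no other gene.

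Samples with the same number deviated together in *ken* and control (correlations of deviations 0.40, 0.57 and 0.24). The block was read as a pairing there. In *pri* and *ken* the same-numbered correlations were 0.62, 0.63 and 0.18. However, *pri* sample 3 correlated better with *ken* sample 2 (0.43), so that a pairing of these genotypes is uncertain. The block was fitted to all 9 samples at once. The numbers of the *pri* samples thus also entered its result for *ken* against control. The pairing comes from these correlations; the labels give only the numbers. The 18 genes and the gene lists were chosen with earlier results of these data known. Genes named are all 18, the rows just outside the threshold, the nearest or overlapping genes and called genes of the lists. The complex subunits, the epidermis and cuticle genes and the uncalled hemocyte markers are named to say what their lists hold. roX2 and let7C are named for their known roles. CG34459 and CG6012, each 2 genes away from its lncRNA gene (CR43650 and CR31781), were added after their values were seen. The same holds for yar and the miRNA hosts outside the 18.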

Additional observations from a re-analysis of the deposited data

Results flagged for a closer look

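The 2 mutants differed by a direct test for 3 of the 18 genes. The log2 fold change in *pri* against *ken* was -2.94 for CR34335, 2.03 for CR43459 and -0.60 for CR44417 (edgeR adjusted p = 0.000887, 0.000213 and 0.0132). CR34335 was at 887 to 1458 normalized counts in *pri* and 9042 to 10990 in *ken*, CR43459 at 3589 to 4618 in *pri* and 772 to 1131 in *ken*, and CR44417 at 398 to 452 in *pri* and 595 to 696 in *ken*.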

How the results depend on the processing

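Of the 54 log2 fold changes of the 18 genes in 3 comparisons, 0 reversed among the 22 that were called in some fit. The other 32 were never called. Of the 10 called, 5 were called in all 17 planned fits, and all 10 were called with *pri* sample 1 and *ken* sample 1 left out together, an alternative chosen after seeing the data. The count of genes higher in *pri* against control (3) was 6 with DESeq2, 1 with only the genotypes compared, 5 without *pri* sample 1 and *ken* sample 1, and 1 to 4 without each sample in turn. The count lower (2) was 4 with DESeq2, 4 without the same pair of samples, 0 at a log2 fold change of at least 1, 5 with a mean count of 250 or more (33 rows), and 1 to 2 without each sample. In *ken* against control, the count higher (2) was 4 with DESeq2, 1 at a log2 fold change of at least 1, 5 with a mean count of 250 or more, 1 among the 9 genes that overlap no other gene, and 1 to 2 without each sample. The count lower (0) was 2 with DESeq2, 1 with filterByExpr, 1 with at least 10 counts in 3 samples, 2 with the replicate block, 1 with a robust spread, 2 with a mean count of 250 or more, and 0 to 1 without each sample. In *pri* against *ken*, the count higher (1) was 2 with DESeq2, 3 with a mean count of 250 or more, and 1 to 2 without each sample. The count lower (2) was 1 at a log2 fold change of at least 1, 4 with a mean count of 250 or more, 1 with a mean count of 1000 or more (12 rows), 0 among genes that overlap no other gene, and 1 to 2 without each sample. The cause of these shifts was not tested, beyond the size of the set where the set itself changed. Over all 15228 rows, DESeq2 called 872 higher and 837 lower in *pri* against control. It called 551 and 688 in *ken* against control, and 936 and 862 in *pri* against *ken*.

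In *pri* against control, samples share only a number, since same-numbered correlations were 0.49, 0.64 and -0.13, and control sample 3 did not correlate best with *pri* sample 3. The block kept 3 genes higher there, and called 3 lower in place of 2, with CR46003 added (log2 fold change -0.89, edgeR adjusted p = 0.00705). The block changed no call in *pri* against *ken*, and none in *ken* against control besides CR43650 and CR30009. At 3 samples per genotype, the smallest change called among the 18 genes was 0.58 on the log2 scale (CR31781). The scalings moved the median of all rows by at most 0.03.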

Other observations

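Some lncRNA genes below the threshold were also called. yar, which lies between yellow and achaete on the X chromosome, had 206, 223 and 222 normalized counts in *pri* mutants, 241, 280 and 263 in *ken*, and 769, 734 and 734 in control (log2 fold change -1.78 in *pri* and -1.52 in *ken*, edgeR adjusted p = 2.84e-05 and 8.23e-05). let7C, the host of let-7 and of other miRNAs of the switch to adult development, had few counts in these embryos, with 3.44, 3.18 and 3.14 in *pri*, 15.6, 20.0 and 15.8 in *ken*, and 1.75, 1.80 and 1.14 in control (log2 fold change 3.33 in *ken* against control, edgeR adjusted p = 0.000822). The other roX RNA, roX2, had 273 to 337 in *pri*, 276 to 393 in *ken* and 272 to 317 in control, and was not called.

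Over all lncRNA rows, 33 held an annotated miRNA hairpin, 17 of them with a mean raw count of at least 50. In *pri* against control 2 of the 33 were higher and 3 lower, against 1.49% and 2.78% of all 1473 lncRNA rows and 3.68% and 3.83% of all rows. In *ken* against control 1 was higher and 3 were lower, against 1.63% and 1.70% of lncRNA rows and 2.21% and 2.81% of all rows. In *pri* against *ken* 3 were higher and 2 lower, against 1.70% and 2.31% of lncRNA rows and 4.03% and 4.09% of all rows. CR45361, the host of the muscle miRNA mir-1, had 79.1, 67.8 and 109 normalized counts in *pri* mutants, 18.9, 20.0 and 16.8 in *ken*, and 27.1, 27.0 and 20.5 in control (log2 fold change 1.77 in *pri* against control, edgeR adjusted p = 0.0031). The muscle markers summed to 631536 to 816410 in *pri*, 627028 to 726166 in *ken* and 627984 to 696950 in control, with 0 of 11 higher in *pri* and 1 lower, TpnC73F (log2 fold change -0.86 against control, edgeR adjusted p = 0.00129). CR45388, the host of mir-315, was lower in both mutants (log2 fold change -1.21 in *pri* and -1.64 in *ken*, edgeR adjusted p = 0.0426 and 0.016). These genes and the list of hosts were chosen after their values were seen, and both mutants were set against the same control samples.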
